A study of Homo sapiens with 6 samples.

Results

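The genes described here build and regulate the contacts and the keratin skeleton of epithelial cells. They comprise cadherins and catenins of adherens junctions, claudins and scaffold proteins of tight junctions, desmosome proteins, keratins, and a few regulators and a protease of the epithelial state. The list names 32 genes by their known role, and it was chosen with earlier results of these data known. A probe set, a group of probes summarised into 1 value, carries the symbol of 28 of them alone, among 18404 genes named on the array. OCLN and CTNND1 lie on probe sets annotated to more than 1 gene and are not reported, and F11R and ESRP1 were not analysed here.

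The cells are SNU-398, an established human hepatocellular carcinoma line, grown in RPMI medium with 10% fetal bovine serum at 37 °C in 5% CO2. The 2 groups are 3 cultures given a scrambled shRNA and 3 given an shRNA that targets SALL4, and the labels call the replicates biological. All arrays therefore come from 1 cell line that carries an shRNA, no untreated culture was part of the comparison, and the labels give neither the vector nor the time after treatment. SALL4 is a transcription factor with zinc fingers that is active in stem cells and in the fetal liver. Only 1 kind of SALL4 shRNA is described, and off-target effects of the hairpin cannot be told apart from loss of SALL4.

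In an epithelial sheet, classical cadherins bridge neighbouring cells and are tied to actin through catenins. Claudins seal the space between cells at tight junctions, where ZO proteins and cingulin form the scaffold beneath the membrane, and desmosomes anchor the keratin filaments. Hepatocytes form simple filaments of keratin 8 and keratin 18, whereas keratin 7 and keratin 19 mark bile duct cells. Loss of junction genes is a known feature of poorly differentiated liver cancer cells.

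The deposited values are linear intensities with a lowest value, or floor, of 10. Array medians lay between 47.85 and 51.69. SALL4, the targeted gene, was at 283, 264 and 335 with the scrambled shRNA and at 121, 119 and 117 with the SALL4 shRNA. It fell by 1.30 ± 0.18 (SE) on the log2 scale (adjusted p 0.0108 in limma). An exact permutation test over the arrays, two-sided, gave p = 0.1, which is the lowest possible with 3 arrays a group. Hepatocyte markers were dim: ALB, which encodes albumin, stayed between 10.1 and 12.8 on the 6 arrays, and 7 of 11 measured markers lay below the filter described next. Of the 7 measured blood cell markers, 2 (PTPRC and LYZ) were at the floor on every array. CD68, the 1 blood cell marker in the fit, read 95.9 to 191. The proteoglycan gene DCN was the 1 gene called among the 8 fibroblast, 2 endothelial, 5 cholangiocyte and 1 blood cell markers in the fit. Of all genes in the fit 1.65% were called. DCN was lower with the SALL4 shRNA, at -1.25 ± 0.21 (SE, adjusted limma p 0.0218). It did not pass in a limma fit with no filter (adjusted p 0.118).

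The comparison asked which of these genes differ when SALL4 is knocked down. Differences are on the log2 scale, SALL4 shRNA minus scrambled, and come from 1 limma fit of the 13325 genes whose log2 intensity averaged 5 or more over the 6 arrays, an intensity of 32. In that fit 21 of the 28 members were present, and 7 lay below the filter. No member passed at an adjusted p of 0.05: limma called 0 of 21, against 220 of 13325 genes or 1.65% (0.6% higher and 1.05% lower with the SALL4 shRNA). At an unadjusted p under 0.05 there were 3 members, CLDN4, KRT8 and CLDN12, against 16.8% of all genes in the fit, and the adjusted p of the 21 lay between 0.276 and 0.989. In the fit of all 18404 genes with no filter limma called 0 genes in all (0% of those tested). There 1 member, KRT23, had an unadjusted p under 0.05, against 2864 of all genes or 15.6%, and no member had an adjusted p below 0.286.

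The members moved in both directions by small amounts. Of the 28, 15 had a positive and 13 a negative difference, with a median of 0.04, while all genes had a median of 0.00. Differences ran from -0.93 for KRT23 to 0.64 for KRT8, and 25 of the 28 lay between the 5th and 95th percentile of all genes, -0.58 and 0.51. A difference of more than 0.5 in either direction was seen in 5 members, 17.9% of them, against 12.1% of all genes. The 95% limma interval lay within a log2 change of 1 either way for 17 of the 21 fitted members, and for 86.3% of the genes in the fit. The exceptions were KRT8, CLDN3, CLDN4 and CLDN12. Lower RNA per cell and fewer cells with a transcript cannot be told apart in RNA from whole cultures.

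**Figure D1:**
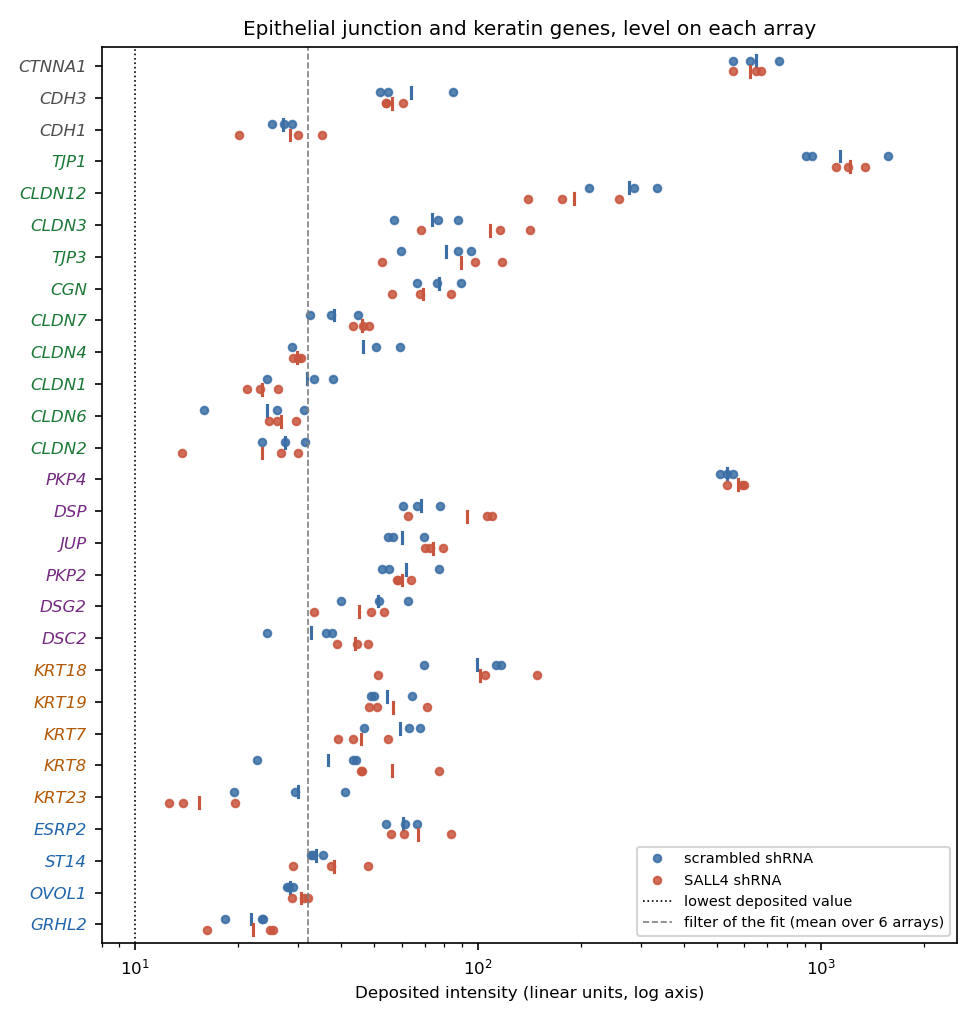
Deposited intensity (linear units on a log axis) of the 28 measured members on each of the 6 arrays, with 1 point per array and a bar for the group mean; label colours mark adherens junction, tight junction, desmosome, keratin, and regulator or protease genes. No member touches the lowest deposited value of 10, most lie below 150 in both groups, and points of both groups overlap in 25 of the 28 genes.

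None of the 28 members was at the floor on any array, whereas 3% of all genes were at the floor on all 6 arrays and 9.36% on at least 1. The lowest single value was 12.6, for KRT23. Probe sets bind their targets with different strength, so these intensities do not rank the genes by transcript number; they show how far each probe set stood above the floor. Group means of CTNNA1, TJP1, PKP4 and CLDN12 ran from 191 to 1218, and those of the other 24 members from 15.4 to 109.

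Among adherens junction genes, CDH1 encodes E-cadherin, the classical cadherin of epithelia. Its probe set read 25.2, 27.3 and 28.8 with the scrambled shRNA and 20.2, 29.9 and 35.2 with the SALL4 shRNA. The scrambled values fell inside the range of the SALL4 shRNA values. The mean lay below the filter, so the difference of 0.03 has no test in the fit. CDH3, the P-cadherin gene and a chromosomal neighbour of CDH1, was at 84.9, 54.8 and 51.9 in the scrambled cultures and at 54.2, 60.6 and 54.2 in the SALL4 shRNA cultures. Its difference was -0.15 ± 0.22 (SE), and the high scrambled mean rested on replicate 1: without that array the difference was 0.08.

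CTNNA1 encodes alpha-catenin, which links the cadherin complex to actin. It read 758, 557 and 624 in the scrambled group and 555, 646 and 670 in the SALL4 shRNA group. The groups overlapped fully, with a difference of -0.04 ± 0.19 (SE) and a 95% limma interval from -0.46 to 0.38.

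Of the 10 measured tight junction genes, 5 had a positive and 5 a negative difference, from -0.57 to 0.52. TJP1, which encodes the scaffold protein ZO-1, had the highest intensity of all members: 909, 947 and 1568 with the scrambled shRNA and 1199, 1107 and 1347 with the SALL4 shRNA. All 3 SALL4 shRNA values lay between scrambled replicates 2 and 3, and the difference was 0.13 ± 0.23 (SE). The scaffold genes TJP3, for ZO-3, and CGN, for cingulin, were at 0.09 ± 0.29 and -0.17 ± 0.21.

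CLDN12, a claudin gene, read 334, 211 and 285 in the scrambled cultures and 176, 258 and 140 in the SALL4 shRNA cultures. Its mean was 277 ± 62 against 191 ± 60.3 (SD, n = 3 each), and 1 SALL4 shRNA array reached into the scrambled range. The difference of -0.55 ± 0.25 (SE) had an unadjusted limma p of 0.0493 and an adjusted p of 0.296. With any 1 array left out it ranged from -0.79 to -0.35.

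CLDN4 encodes claudin-4, a sealing claudin of simple epithelia. It was at 28.8, 50.6 and 59.2 in the scrambled group and at 28.9, 30.4 and 29.9 in the SALL4 shRNA group. The SALL4 shRNA arrays were nearly equal, and scrambled replicate 1 matched them while the other scrambled arrays lay well above. The difference was -0.57 ± 0.25 (SE) with an adjusted limma p of 0.276. Without scrambled replicate 1 it was -0.88 with an adjusted limma p of 0.108, the lowest of any member under any setting tried, and without scrambled replicate 3 it was -0.36.

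CLDN3, which lies beside CLDN4 on the same chromosome, differed in the other direction. Its values were 87.4, 76.8 and 57.0 with the scrambled shRNA and 68.5, 116 and 142 with the SALL4 shRNA. Replicates 2 and 3 of the SALL4 shRNA exceeded every scrambled array and replicate 1 did not, and the difference was 0.52 ± 0.27 (SE, adjusted limma p 0.361). CLDN7 was at 38.1 ± 6.24 and 45.9 ± 2.37 (SD, n = 3 each), a difference of 0.28 ± 0.19 (SE). CLDN1, CLDN2 and CLDN6 lay below the filter, with values from 13.8 to 37.9. Their differences of -0.42, -0.29 and 0.18 have no test in the filtered fit. In the unfiltered limma fit their unadjusted p was 0.0804, 0.416 and 0.537. CLDN1 encodes the claudin that hepatitis C virus uses for entry into hepatocytes.

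All 6 desmosome members were in the fit, and 4 had a positive difference, with a median of 0.20. DSC2, which encodes the desmosomal cadherin desmocollin-2, was at 24.2, 36.0 and 37.6 in the scrambled cultures and at 44.6, 47.7 and 38.9 in the SALL4 shRNA cultures. The groups did not overlap, but the highest scrambled and the lowest SALL4 shRNA value were close. The difference was 0.45 ± 0.21 (SE, adjusted limma p 0.319), and 0.25 without scrambled replicate 1.

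JUP encodes plakoglobin, the armadillo protein shared by desmosomes and adherens junctions. It read 56.6, 54.6 and 69.9 with the scrambled shRNA and 72.5, 70.2 and 79.0 with the SALL4 shRNA. Its groups did not overlap either, by a margin smaller than the spread within each group. The difference was 0.30 ± 0.19 (SE), the adjusted limma p was 0.449, and leaving out any 1 array gave 0.23 to 0.41.

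DSP encodes desmoplakin, which ties desmosomes to keratin filaments. It was at 60.6, 66.5 and 77.5 in the scrambled group and at 110, 107 and 62.8 in the SALL4 shRNA group. Replicates 1 and 2 of the SALL4 shRNA exceeded all scrambled arrays and replicate 3 did not, for a difference of 0.41 ± 0.24 (SE, adjusted limma p 0.411). PKP4, a plakophilin relative, was at 533 ± 23.8 and 574 ± 35.1 (SD, n = 3 each), a difference of 0.11 ± 0.18 (SE) with a 95% interval from -0.28 to 0.49. DSG2, a desmoglein gene, was at -0.19 ± 0.24, and PKP2, an armadillo protein of the plaque, at -0.01 ± 0.20.

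The promoters of DSC2 and JUP are shown because these are the desmosome genes whose groups did not overlap. Each sequence holds the 250 bases before the annotated RefSeq start (GRCh38.p14) that lies farthest 5′ in the gene, written 5′ to 3′ on the minus strand that carries the gene. They span chr18:31102422-31102671 for DSC2 and chr17:41786712-41786961 for JUP. Capitals mark CAGGTG, the E-box bound by SNAI and ZEB repressors, GGGCGG, the GC box, and CCAAT, each searched on both strands.
DSC2: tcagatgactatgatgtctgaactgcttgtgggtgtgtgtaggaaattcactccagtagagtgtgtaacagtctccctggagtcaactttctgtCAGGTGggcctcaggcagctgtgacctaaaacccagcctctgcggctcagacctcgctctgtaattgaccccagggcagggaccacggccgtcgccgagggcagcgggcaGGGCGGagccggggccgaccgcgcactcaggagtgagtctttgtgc
JUP: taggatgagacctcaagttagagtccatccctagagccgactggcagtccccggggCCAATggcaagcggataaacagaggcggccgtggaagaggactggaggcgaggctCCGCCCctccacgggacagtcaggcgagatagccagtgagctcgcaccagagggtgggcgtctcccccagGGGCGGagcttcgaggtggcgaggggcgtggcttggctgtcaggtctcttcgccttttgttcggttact

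DSC2 carries 1 E-box and 1 GC box in this window, and JUP carries 2 GC boxes and 1 CCAAT box. The window of KRT8 holds none of these motifs. RefSeq promoter windows were matched for 17 of the 28 members, 29 windows in all. An E-box stood in 7 of the 29, against 17.5% of 35116 windows of the same length, in CLDN7, DSC2, DSG2, DSP, JUP, TJP1 and TJP3. DSC2 and JUP have 2 windows each, and the E-box of JUP lies in the window not shown. The GC box stood in 20 of the 29 (42.6% of all windows), the CCAAT box in 7 (32%) and AACCNGTT, the motif of grainyhead factors, in 1, that of CGN (1.49%). Such matches describe the letters in these windows and do not show that a factor binds there.

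KRT8 was the third member whose groups did not overlap and had the highest positive difference of all. It encodes keratin 8, the type II partner of keratin 18 in simple epithelia and hepatocytes. It read 22.7, 43.2 and 44.3 with the scrambled shRNA and 46.1, 77.3 and 45.7 with the SALL4 shRNA. Scrambled replicate 1 stood low and SALL4 shRNA replicate 2 high, while the other 4 arrays lay between 43.2 and 46.1. The difference was 0.64 ± 0.29 (SE), with an unadjusted limma p of 0.0475 and an adjusted p of 0.293, and it was 0.32 without scrambled replicate 1.

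KRT18, the neighbouring gene and keratin 8's type I partner, did not show the same pattern. Its brighter probe set read 69.6, 117 and 113 in the scrambled cultures and 51.2, 105 and 149 in the SALL4 shRNA cultures, a difference of -0.07 ± 0.34 (SE). Its SALL4 shRNA values spread over the whole scrambled range and beyond, and leaving out any 1 array moved the difference between -0.41 and 0.36. A second probe set with the same gene accessions read 63.8, 47.1 and 43.0 against 26.4, 35.3 and 30.0, with no overlap. In a limma fit of all probe sets its difference was -0.74 ± 0.21 (SE), with an unadjusted p of 0.00813 and an adjusted p of 0.182, and the mean of both probe sets gave -0.40 with an adjusted limma p of 0.417. Keratin 8 and keratin 18 have many pseudogene copies that can share probes, so values of both genes are uncertain.

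The bile duct keratins KRT7 and KRT19 stood at 59.2 ± 11.1 and 54.3 ± 8.61 in the scrambled group and at 45.7 ± 8 and 56.7 ± 12.5 in the SALL4 shRNA group (SD, n = 3 each). KRT7 differed by -0.37 ± 0.21 (SE) and KRT19 by 0.05 ± 0.21. KRT23, a type I keratin gene, was at 41.1, 19.4 and 29.4 with the scrambled shRNA and at 12.6, 13.8 and 19.7 with the SALL4 shRNA. Its groups touched at scrambled replicate 2 and SALL4 shRNA replicate 3. The difference of -0.93, with no test in the filtered fit, is the most negative of all members. With any 1 array left out it ranged from -1.206 to -0.665. Near the floor a difference can be understated, but no KRT23 value was at the floor. In the unfiltered limma fit the unadjusted p of KRT23 was 0.0371.

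Of the regulators, ESRP2 encodes an epithelial splicing factor and was at 60.7 ± 6.14 and 66.9 ± 14.9 (SD, n = 3 each), a difference of 0.12 ± 0.21 (SE). GRHL2 and OVOL1, transcription factors of the epithelial state, lay below the filter. GRHL2 ranged from 16.2 to 25.3 and OVOL1 from 27.9 to 32.0, with differences near 0 (-0.005 and 0.11) that have no test in the filtered fit. ST14, the membrane serine protease matriptase, stood just above the filter at 33.7 ± 1.51 and 38.0 ± 9.53 (SD, n = 3 each), a difference of 0.14 ± 0.21 (SE).

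**Figure D2:**
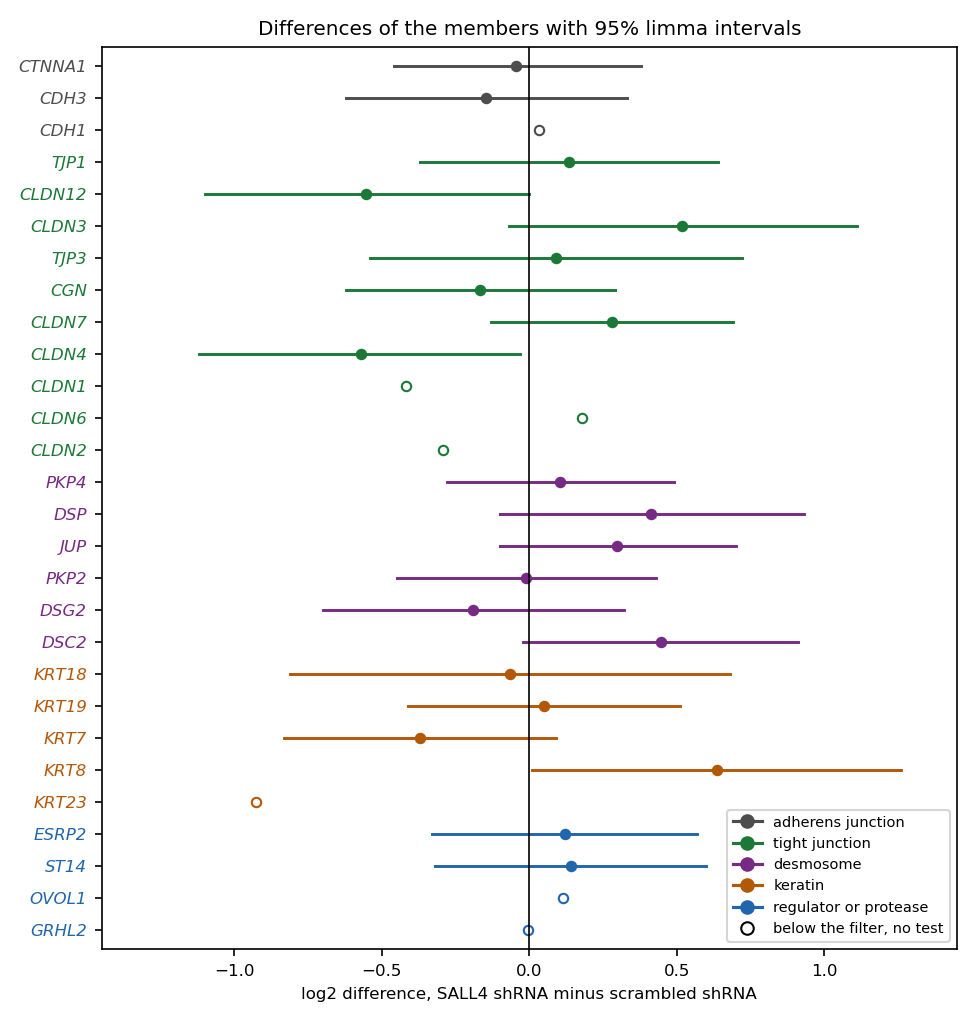
Difference of the log2 means, SALL4 shRNA minus scrambled shRNA (horizontal axis), for the 28 measured members. Bars are 95% limma intervals of the 21 members in the fit, and open circles are the 7 members below its filter, with no test in that fit. The intervals of KRT8, CLDN4 and CLDN12 miss 0 by a small margin before adjustment, and none passes after adjustment over 13325 genes.

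Non-overlapping groups were thus seen in 3 of the 28 members, KRT8, DSC2 and JUP, all higher with the SALL4 shRNA, and in none that was lower. Among all genes 9.54% did not overlap with higher and 9.53% with lower SALL4 shRNA values, so the share of members was close to the background for higher values. All 3 were in the fit, where the groups did not overlap in 22.2% of genes in either direction. In KRT8 and DSC2 scrambled replicate 1 was the lowest of the 6 arrays.

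Variation between replicates was large beside the differences between groups for most members. Scrambled replicate 1 held the lowest value of 8 members (KRT8, CLDN4, CLDN6, CLDN7, TJP1, DSP, DSC2 and PKP4). It held the highest value of 9 others (CDH3, KRT23, CLDN1, CLDN2, CLDN12, CGN, DSG2, PKP2 and CTNNA1). Of the 21 fitted members 61.9% had an extreme on this array, against 31.2% of all genes in the fit, while scrambled replicate 2 held an extreme of 4.76% of the fitted members. The members' median deviation from the scrambled mean was -0.01 on this array, so it was not shifted as a whole but spread the members both ways. Its part in the differences was not tested beyond leaving it out: limma then called 0 members, and CDH1, CDH3, CLDN6, TJP1, KRT19, PKP2 and CTNNA1 changed sign, with differences of at most 0.18 in size when all arrays were used.

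**Figure D3:**
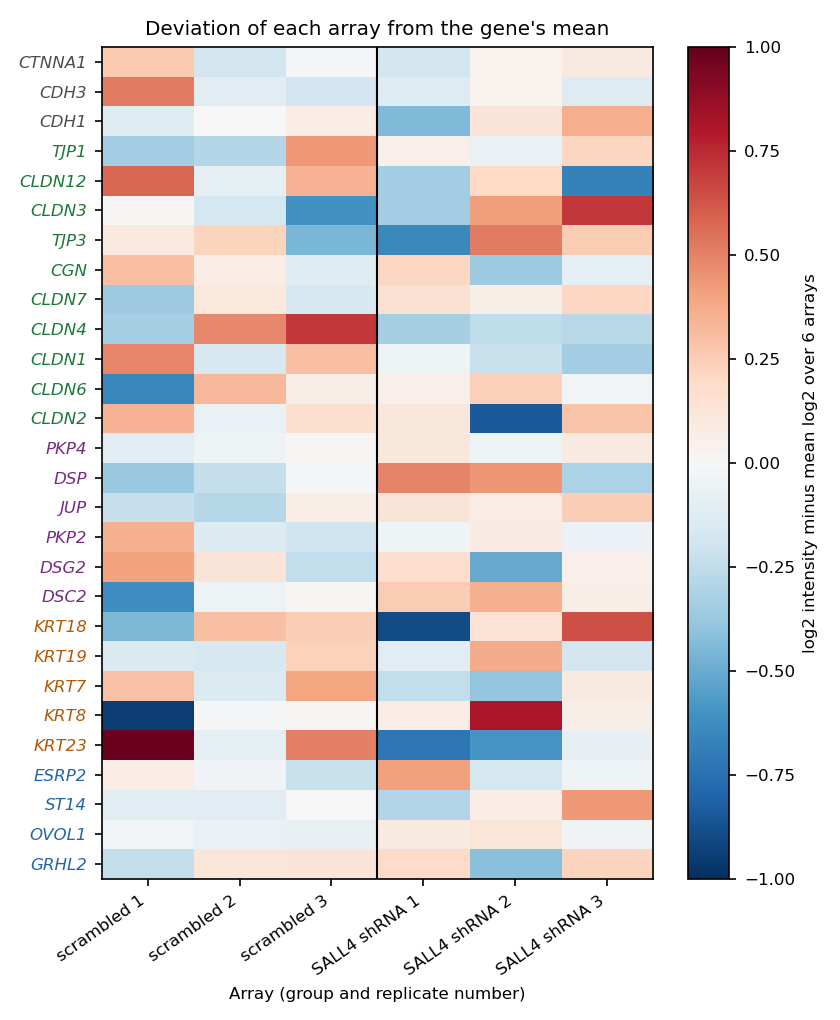
Log2 intensity minus the mean over the 6 arrays (colour) for each of the 28 members (rows) on each array (columns, scrambled left of the line). The column of scrambled replicate 1 alternates between strong blue (KRT8, CLDN6, DSC2) and strong red (KRT23, CLDN12, CDH3), and no class of genes changes colour as a whole at the line between the groups.

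**Figure D4:**
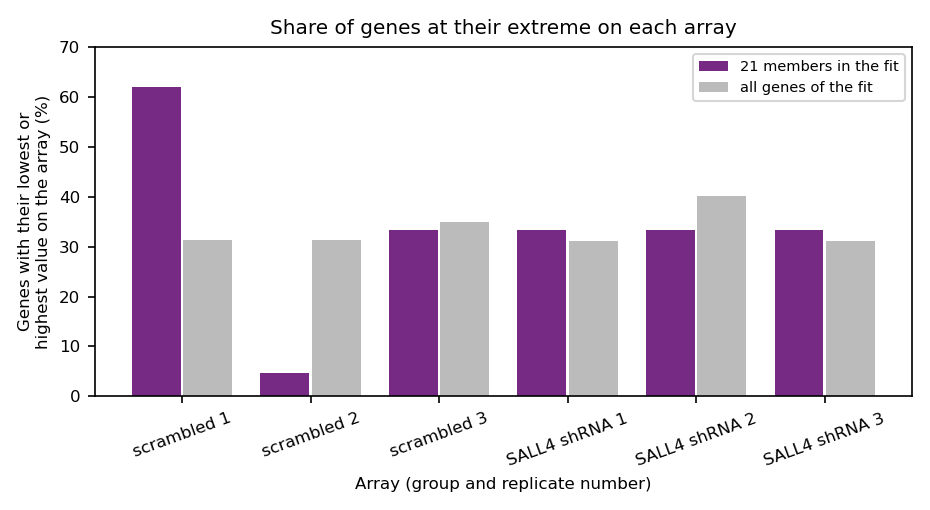
Share in percent of genes whose lowest or highest value of 6 lies on each array, for the 21 fitted members (purple) and all 13325 genes of the fit (grey). Scrambled replicate 1 stands at 61.9% against 31.2%, scrambled replicate 2 at 4.76% against 31.3%, and the other arrays at 33.3% of the members.

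Other genes of the same structures gave a similar picture. Of 91 further junction, keratin and regulator genes measured in 5 lists, 53 were in the fit and limma called 0 of them, with 7 at an unadjusted p under 0.05 against 16.8% of all genes in the fit. The median difference of the 91 was 0.06. Of the 91, 10 had non-overlapping groups with higher and 3 with lower SALL4 shRNA values, against 9.54% and 9.53% of all genes.

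Among 17 further adherens junction genes, those with the highest intensities were the nectin gene NECTIN3, EPCAM and CDH2, which encodes N-cadherin. NECTIN3 was at 1505 ± 97.6 and 1419 ± 123 (SD, n = 3 each) and CDH2 at 872 ± 113 and 708 ± 62, a difference of -0.30 ± 0.19 (SE). EPCAM is an epithelial adhesion molecule also used as a bile duct and progenitor marker. Its brighter probe set, which represents the gene elsewhere here, was at 963 ± 152 and 894 ± 115. The second was at 280 ± 16.1 and 239 ± 7.34, and its groups did not overlap. In the limma fit of all probe sets the second set differed by -0.23 ± 0.16 (SE, unadjusted p 0.188, adjusted p 0.553). The brighter set differed by -0.10 ± 0.19 there. Which of the 2 sets measures EPCAM better was not tested. NECTIN2, a nectin gene, and CTNND2, a delta-catenin gene, had the lowest p among the genes of this list in the fit, with differences of 0.28 ± 0.18 and 0.31 ± 0.19 (SE). CTNNA2, an alpha-catenin gene below the filter, read 42.6, 35.2 and 28.4 with the scrambled shRNA and 24.2, 18.7 and 18.3 with the SALL4 shRNA. Its groups did not overlap, and in the unfiltered limma fit its difference of -0.79 had an unadjusted p of 0.0094 and an adjusted p of 0.178. In the other lists of further genes, groups below the filter also did not overlap in RAB25, KRT3 and EHF. RAB25 and KRT3 were higher with the SALL4 shRNA, at 0.575 and 0.393, and EHF was lower, at -0.428.

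Of 32 further tight junction genes, AMOT and JAM3 had the lowest p. AMOT encodes angiomotin, a junctional regulator of YAP, and read 142, 108 and 114 with the scrambled shRNA and 177, 180 and 234 with the SALL4 shRNA. Its groups did not overlap, with a difference of 0.69 ± 0.20 (SE) and an adjusted limma p of 0.0982. JAM3, a junctional adhesion molecule, read 994, 793 and 738 against 570, 578 and 496, also without overlap, with a difference of -0.61 ± 0.19 and an adjusted limma p of 0.125. The scaffold gene MPDZ and the polarity kinase gene PRKCI were at -0.23 ± 0.19 and 0.13 ± 0.22 (SE).

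Of 10 further desmosome genes only 4 were in the fit, and the desmogleins and desmocollins DSG1, DSG3, DSG4, DSC1 and DSC3 of stratified epithelia lay between 10 and 16.6 on every array. PPL, which encodes periplakin, was at 35.4, 32.4 and 35.1 with the scrambled shRNA and at 58.7, 36.3 and 54.8 with the SALL4 shRNA. Its groups did not overlap, and the difference was 0.51 ± 0.21 (SE, adjusted limma p 0.251). PERP, a p53 target of desmosomes, was at 542 ± 191 and 621 ± 52.9 (SD, n = 3 each). EVPL and PKP3, of the cornified envelope and the desmosomal plaque, had differences of 0.02 ± 0.19 and 0.04 ± 0.22 (SE). Of 18 further keratin genes 5 were in the fit, with KRT14 at 0.30 ± 0.21, KRT16 at 0.41 ± 0.23, KRT13 at -0.05 ± 0.18 and KRT79 at 0.29 ± 0.21 (log2 difference ± SE).

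Of 14 further regulators and proteases 8 were in the fit. SPINT2, an inhibitor of matriptase and related proteases, was at 46.0, 71.8 and 65.4 with the scrambled shRNA and at 91.1, 94.3 and 75.8 with the SALL4 shRNA. The groups did not overlap, and the difference was 0.53 ± 0.21 (SE, adjusted limma p 0.235). Its relative SPINT1 was at 0.18 ± 0.21 and the transcription factor gene KLF5 at 0.35 ± 0.22 (SE).

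The mesenchymal genes chosen as a counterpart were bright in part. VIM, which encodes the filament protein vimentin, was at 4170 ± 230 and 4142 ± 524 (SD, n = 3 each), and ZEB2, an E-box repressor of CDH1, at 971 ± 76.3 and 1139 ± 26.4, a difference of 0.23 ± 0.18 (SE). Of 20 such genes in the fit limma called 2, both lower with the SALL4 shRNA. Of all genes in the fit it called 1.65%, and 1.05% as lower. The 2 were PRRX1, a mesenchymal homeobox gene, at -1.80 ± 0.23 (SE, adjusted p 0.00885) and ACTA2, smooth muscle actin, at -1.02 ± 0.18 (adjusted p 0.0239). Neither passed in the unfiltered limma fit (adjusted p 0.106 for PRRX1 and 0.0946 for ACTA2) or over all probe sets (0.0544 and 0.0769). ACTA2 also lost the call in 5 of the 6 limma fits without 1 array (adjusted p 0.0497 to 0.0833), with the replicate block (0.0631) and without scrambled replicate 3 and SALL4 shRNA replicate 2 together (0.0959). Of the 21 measured mesenchymal genes, 3 had non-overlapping groups with higher and 3 with lower SALL4 shRNA values, against 9.54% and 9.53% of all genes. The median of the 21 was -0.04, and that of the members 0.04.

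**Figure D5:**
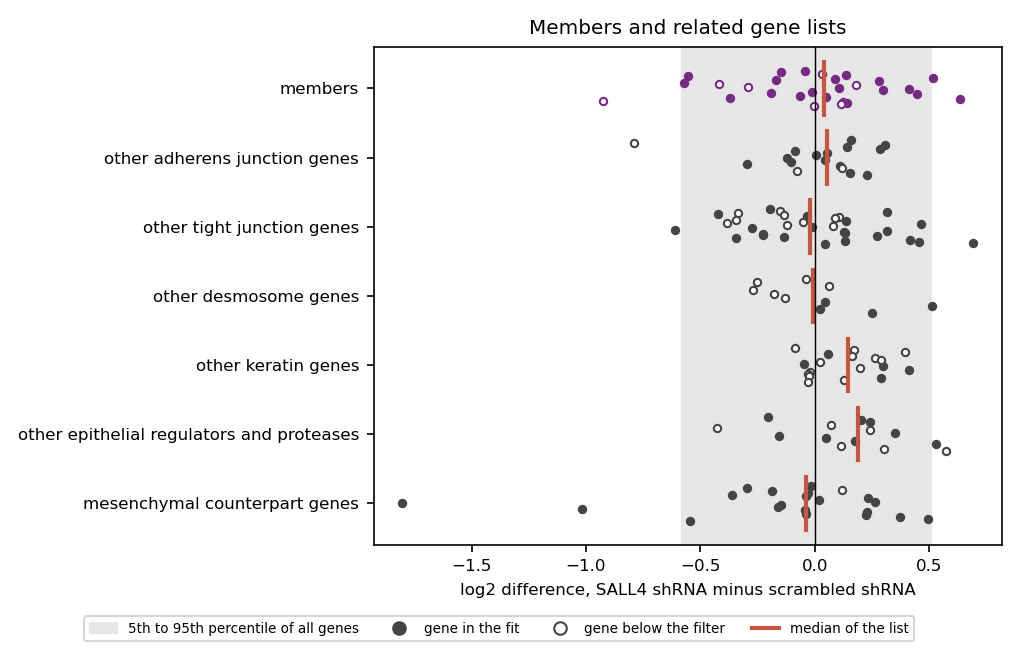
Difference of the log2 means, SALL4 shRNA minus scrambled shRNA, for each gene of the members, of 5 lists of related epithelial genes and of the mesenchymal list; filled points are in the fit, open points lie below its filter, red bars are list medians and the grey band spans the 5th to 95th percentile of all genes (-0.58 to 0.51). List medians lie between -0.04 and 0.19, and the points farthest from 0 are PRRX1 and ACTA2 of the mesenchymal list.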

How the data were processed

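Total RNA (6 µg per labelling) of 6 SNU-398 cultures was hybridized to Affymetrix arrays. The submitters' processing notes name RMA, without a version; later steps and the genome build are not given in sources used here. The deposited table holds linear intensity values for 32319 probe sets, with a lowest value of 10 on every array. Log2 was taken here. Of the probe sets 19158 have 1 symbol in the platform annotation, 1388 several and 11773 are not listed; symbols were updated through Entrez identifiers (19128 matched). Each of 18404 genes is represented by its brightest probe set (637 genes have more than 1).

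SALL4 shRNA minus scrambled was tested in limma (version 3.58.1, R 4.3.3) with lmFit and eBayes (two-sided, Benjamini-Hochberg over all 13325 genes fitted, threshold 0.05), without a block, and tested on simulated data. The filter, a mean log2 of at least 5 over the 6 arrays, uses no group label. Every member is accounted for. Of each related list, called genes, up to 3 genes of highest intensity and up to 2 of lowest p are named. PTPRC, LYZ, CD68, ALB, DCN, CTNNA2, RAB25, KRT3, EHF, EPCAM's second probe set and 5 dim desmosomal cadherins were added after their values were seen. Members and lists were chosen with earlier results of these data known. Alternatives were other filters, probe set rules, variance models and scalings, a replicate block and left-out arrays. P-values of limma set the group difference against the spread between these cultures, drawn toward the spread of all genes in the fit. The number of arrays limits the precision.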

Additional observations from a re-analysis of the deposited data

How the results depend on the processing

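Limma called 0 members and 0 of the further epithelial genes under each alternative run, and 0 members were at the floor on all arrays with the mean of a gene's probe sets, over all probe sets and in each fit that left out arrays. The lowest adjusted p of a member over these alternatives was 0.108 (CLDN4). The count over all genes depended on the setting. Against 220 it was 0 with no filter, 341 with a mean log2 of at least 6, 7 over all probe sets, 486 with trend and robust settings, 20 without scrambled replicate 3 and SALL4 shRNA replicate 2 together, and 37 to 99 without any 1 array (scrambled replicate 1, 2 and 3 left out gave 37, 42 and 59, and SALL4 shRNA replicate 1, 2 and 3 gave 98, 63 and 99). With the replicate block it was 37. The labels do not say whether same-numbered cultures were paired. Correlations of deviations were 0, -0.09 and -0.04 for same-numbered arrays and lay between -0.06 and 0.09 for the others. Such values from few arrays cannot decide whether the cultures were paired. The cause of these shifts was not tested, apart from the fewer arrays.

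SALL4 kept a log2 difference of -1.30 but not the call with no filter (adjusted p 0.0946) and over all probe sets (0.0544), and was at -1.20 (0.0691) without the 2 arrays together. The members' median of 0.04 ranged from -0.027 to 0.086 without any 1 array. Signs changed only for genes that were never called. With quantile normalization PKP2 was at 0.003. Centred on array medians, PKP2 was at 0.035, CTNNA1 at 0.002, KRT13 at 0 and VIM at 0.03. Without the 2 arrays together TJP3 was at -0.35, PKP3 at -0.24, SPINT1 at -0.08, NECTIN3 at 0.009 and KRT13 at 0.019. Without any 1 array, ranges that crossed 0 were CDH3 -0.28 to 0.076, KRT18 -0.41 to 0.36, KRT19 -0.12 to 0.18, TJP1 -0.006 to 0.39, TJP3 -0.15 to 0.43, DSG2 -0.36 to 0.014, PKP2 -0.12 to 0.16, CTNNA1 -0.15 to 0.077, ESRP2 -0.051 to 0.24, ST14 -0.039 to 0.33, EPCAM -0.20 to 0.024, PRKCI -0.062 to 0.27, EVPL -0.094 to 0.14, PKP3 -0.13 to 0.22, KRT13 -0.14 to 0.026 and VIM -0.11 to 0.071. Among members below the filter CDH1, CLDN2, CLDN6 and GRHL2 also changed sign without 1 array. GRHL2, at -0.005 in the deposited scaling, was at 0.027 with quantile normalization and at 0.041 when centred on array medians. Intensities near the floor limit what the 7 dim members can show.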
